A study of Rattus norvegicus with 8 samples.

Results

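The comparison asked what a human protein carrying both the P61S and the R100E substitution left in the RNA of cultured rat sensory ganglia, set against the same protein without them. It used 5 of the 8 arrays of the study, 3 of cultures given P61S/R100E and 2 of cultures given the wild type form, chosen by their titles. The other 3 arrays, of cultures given P61S alone, entered the shared estimate of the spread and are quoted where they help to read a gene. Both groups were dissociated dorsal root ganglia of Wistar rats aged 0 to 5 days, with male and female cells pooled. All cultures were kept without serum but with the N2 supplement, and with 5-fluoro-2′-deoxyuridine and uridine, which suppress dividing cells. Each form of the protein was given at 100 ng/ml for 5 days, so every group received the protein, and no culture without it was analysed here. The contrast therefore shows the joint effect of both substitutions, not the response to the protein as such. Whether replicates are separate cultures or animals is not stated in the labels, and the p-values therefore reflect the spread of these arrays alone.

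Dorsal root ganglia hold the cell bodies of sensory neurons, together with satellite glia, Schwann cells, fibroblasts and macrophages. Nociceptors, the neurons that report damaging heat, irritants and inflammation, carry channels such as Trpv1 and Trpa1, and many release neuropeptides. After axon injury sensory neurons are known to switch their peptides, raising Vip and Gal, and to induce transcription factors such as Atf3. Early genes and the ERK feedback genes (Spry and Dusp families) are known to follow the activity of growth factor receptors.

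The values are log2 signals relative to the 75th percentile of each array, so 0 is the level of a bright probe and lower values are dimmer. The share of spots well above background ran from 78.67% to 88.83% over the arrays. Across probes, wild type replicate 2 correlated at 0.9828 to 0.9889 with the other arrays, while pairs without it lay between 0.99 and 0.9964. That array is 1 of the 2 values behind every wild type mean, so the results that rest on it are also given without it. All arrays lay on 1 slide and both wild type arrays in 1 column of it, which held no mutant array, so that column and the wild type form cannot be told apart. All 21 measured pan-neuronal markers were well above background on all 5 arrays, so RNA of neurons was present in every culture.

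In the limma fit 0 of 23585 tested probes (0.0%) passed an adjusted p of 0.05, and Lrat was the closest at 0.054. The unadjusted p was under 0.05 in 377 higher probes (1.6%) and 811 lower ones (3.44%), together 1188 (5.04%), where 1179 of 23585 would pass if no probe differed. Taking the brightest probe of each of 12147 genes, 247 genes were higher (2.03%) and 383 lower (3.15%), and these shares are the background for the gene groups below. Every gene named below is accordingly a measured difference that did not pass the adjusted test. The arrays of the groups did not overlap in 906 genes on the higher side (7.46%) and 1061 on the lower side (8.73%). The gene groups below were chosen with earlier results of these data known, so their counts beside these shares are a description.

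The excess of lower genes lay against 1 of the wild type arrays. Set against wild type replicate 1 alone, the P61S/R100E mean was at least 1.5-fold higher in 167 genes and at least 1.5-fold lower in 91. Set against wild type replicate 2 alone, it was higher in 283 and lower in 1739. Of those 1739 genes, 1257 were among the 4049 dimmest of 12147 genes, where the median log2 difference was -0.34, against 0.02 for the same genes set against wild type replicate 1. The 4049 brightest held 66 and 3 such lower genes against replicates 2 and 1. Without wild type replicate 2 the fit counted 231 probes higher and 235 lower at an unadjusted p under 0.05, and without wild type replicate 1 it counted 1224 and 4986. The share of higher probes also moved with the scaling. It was 31.7% under the 75th percentile, 45.1% after centring on the median of detected probes, 45.4% after quantile normalization and 47.2% after normexp. With these scalings or the deposited values, 247 to 453 genes were higher and 282 to 386 lower at an unadjusted p under 0.05.

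**Figure D1:**
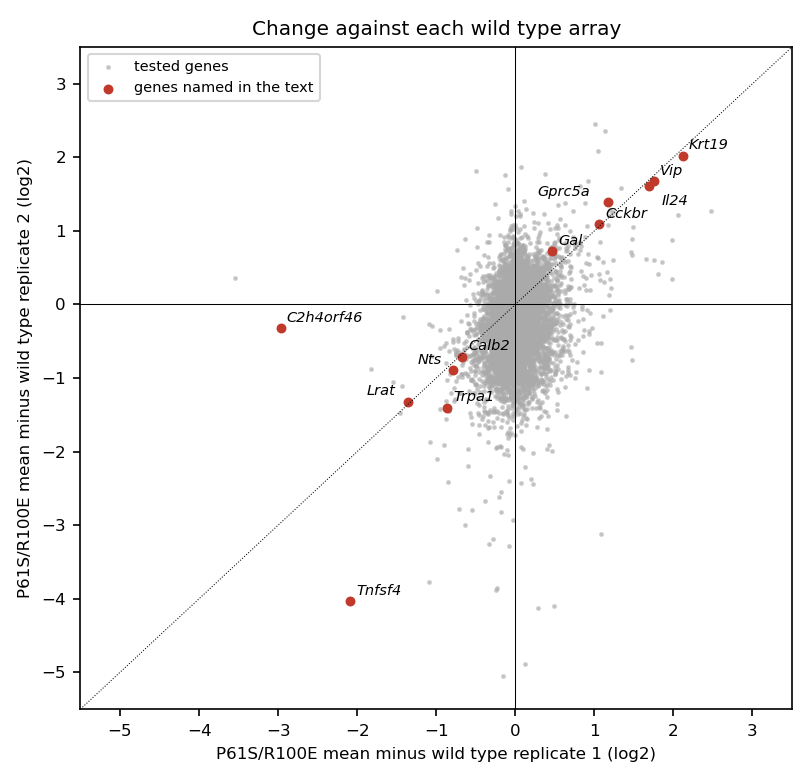
Log2 difference of the P61S/R100E mean (3 arrays) from wild type replicate 1 (horizontal axis) and from wild type replicate 2 (vertical axis), 1 point per tested gene (12147), with 12 genes named in the text in red and equal values on the dotted line. Differences from replicate 2 spread further below 0 (1739 genes at least 1.5-fold lower) than those from replicate 1 (91 genes), while Vip, Il24 and Lrat lie near the dotted line.

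Among higher genes without overlap the smallest p was that of Vip, which encodes vasoactive intestinal peptide. Its log2 signal was 1.46, 1.54 and 1.32 with P61S/R100E and -0.31 and -0.24 with wild type. The P61S/R100E arrays were all high and the groups were far from overlapping, a 3.29-fold difference (log2 change 1.72, SE 0.175, adjusted p 0.19). With P61S alone Vip stood at -0.38, 0.10 and -0.45, beside the wild type level. By p, Anxa3 (adjusted p 0.19) and Pde6b (adjusted p 0.28) came next and are given below. Il24, a cytokine related to interleukin-10, came after them, at 0.12, 0.33 and 0.26 against -1.46 and -1.37 (log2 change 1.65, SE 0.21, adjusted p 0.28). Vip and Il24 passed an adjusted p of 0.05 in limma under some alternatives. Vip was at 0.049 with a variance trend and 0.043 without P61S replicate 2, and Il24 at 0.043 without P61S replicate 2. Both passed without wild type replicate 1 as well, among 1244 probes that did. Over all alternatives the adjusted p of Vip ran from 0.03 to 0.69 and that of Il24 from 0.041 to 0.99.

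Of the other 10 higher genes, Gprc5a, an orphan receptor induced by retinoic acid, was at -3.14, -2.75 and -3.12 with P61S/R100E and -4.18 and -4.40 with wild type (log2 change 1.28, SE 0.198). Cckbr, the cholecystokinin B receptor that sensory neurons are known to gain after axon injury, was at -3.52, -3.10 and -3.41 against -4.40 and -4.44 (log2 change 1.08, SE 0.17). In both genes every P61S/R100E array was above both wild type arrays. A further Cckbr probe gave a smaller log2 change of 0.46. Pde6b, a subunit of the rod phosphodiesterase that breaks down cyclic GMP, differed by 1.21 (SE 0.148), from -4.31 and -4.31 with wild type to -3.14, -2.98 and -3.16 with P61S/R100E. Cmtm2a, a chemokine-like membrane protein, was higher by 1.25 (SE 0.185) on 1 probe and by 1.22 on another. The remaining 6, with their log2 changes, were the annexin Anxa3 (0.99), the ETS factor of epithelia Elf5 (0.84), the secreted protein Crisp3 (0.83), the membrane metalloproteinase Mmp16 (0.66), the keratin Krt14 (0.60) and the glycogen synthase Gys2 (0.58). Anxa3 was at -1.80, -1.80 and -1.92 with P61S/R100E and -2.75 and -2.90 with wild type, and Mmp16 at -0.92, -0.77 and -0.81 against -1.39 and -1.60.

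On the lower side Lrat had the smallest p of all probes. Lrat encodes lecithin retinol acyltransferase, which stores retinol as its esters. Its log2 signal was -4.58, -4.48 and -4.41 with P61S/R100E, -3.13 and -3.17 with wild type and -3.38, -3.24 and -3.38 with P61S alone. All 3 P61S/R100E arrays were low and lay close together, a 2.53-fold difference (log2 change -1.34, SE 0.0947, adjusted p 0.054). A further Lrat probe was not well above background on any P61S/R100E array. There the bound was 1.85-fold higher with wild type (2.83 and 1.21-fold without wild type replicates 1 and 2). On that probe the groups overlapped, at -9.62, -7.17 and -8.97 with P61S/R100E and -7.66 and -6.43 with wild type. It did not pass the unadjusted limma test (p 0.096). Lrat passed at an adjusted p of 0.034 in the deposited values and 0.032 when probes had to be above background on all 8 arrays, and without wild type replicate 1, and its adjusted p ran from 0.019 to 0.64 over all alternatives.

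Of the other 11 lower genes, Cxcl13, a chemokine that attracts B cells, was at 0.17, -0.30 and -0.17 with P61S/R100E and 0.68 and 1.04 with wild type (log2 change -0.96, SE 0.172). Olr1, the scavenger receptor for oxidized low-density lipoprotein, differed by -0.84 (SE 0.137), and Il7r, the interleukin-7 receptor, by -0.69 (SE 0.102), with a further Il7r probe at -0.69. All 3 P61S/R100E arrays lay below both wild type arrays in these genes. Prlr, the prolactin receptor, was at -7.22, -7.20 and -7.33 against -6.17 and -5.38 (log2 change -1.48, SE 0.258), and was well above background on 2 of the 3 P61S/R100E arrays. Camk4, a neuronal kinase switched on by calmodulin, was at -1.70, -1.77 and -1.82 against -1.09 and -0.82 (log2 change -0.81, SE 0.111). Calb2, the calcium buffer calretinin, was at -1.19, -1.07 and -1.0 against -0.41 and -0.38 (log2 change -0.69, SE 0.0889). The last genes were Grem1, an antagonist of bone morphogenetic proteins (-0.55, a further probe -0.70), the tight junction protein Cldn3 (-0.66) and the ubiquitin ligase Marchf11 (-0.64), as log2 changes, with Mrgprb5 and F2rl1 taken up among the nociceptor genes.

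These 24 genes, 12 in each direction, were taken by p among genes whose arrays did not overlap, so their separation was set by the choice. All 24 had the same direction within each row of the slide and in every alternative fit that held the probe. Without overlap, the direction within each row and with any array left out cannot turn, so the choice set these results too. The direction under the other scalings was not fixed in this way. In all 24 the 3 P61S values lay beyond those of P61S/R100E, toward wild type, and in 22 the P61S mean was nearer to the wild type mean. Of all tested genes, 1.99% were higher and 2.91% lower with an unadjusted p under 0.05 and no overlap, and among these 596, the P61S values lay so in 356 (59.7%), and the P61S mean was nearer to wild type in 378 (63.4%). The P61S arrays shaped the estimate of the spread by which these genes were taken, so the shares are a description.

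**Figure D2:**
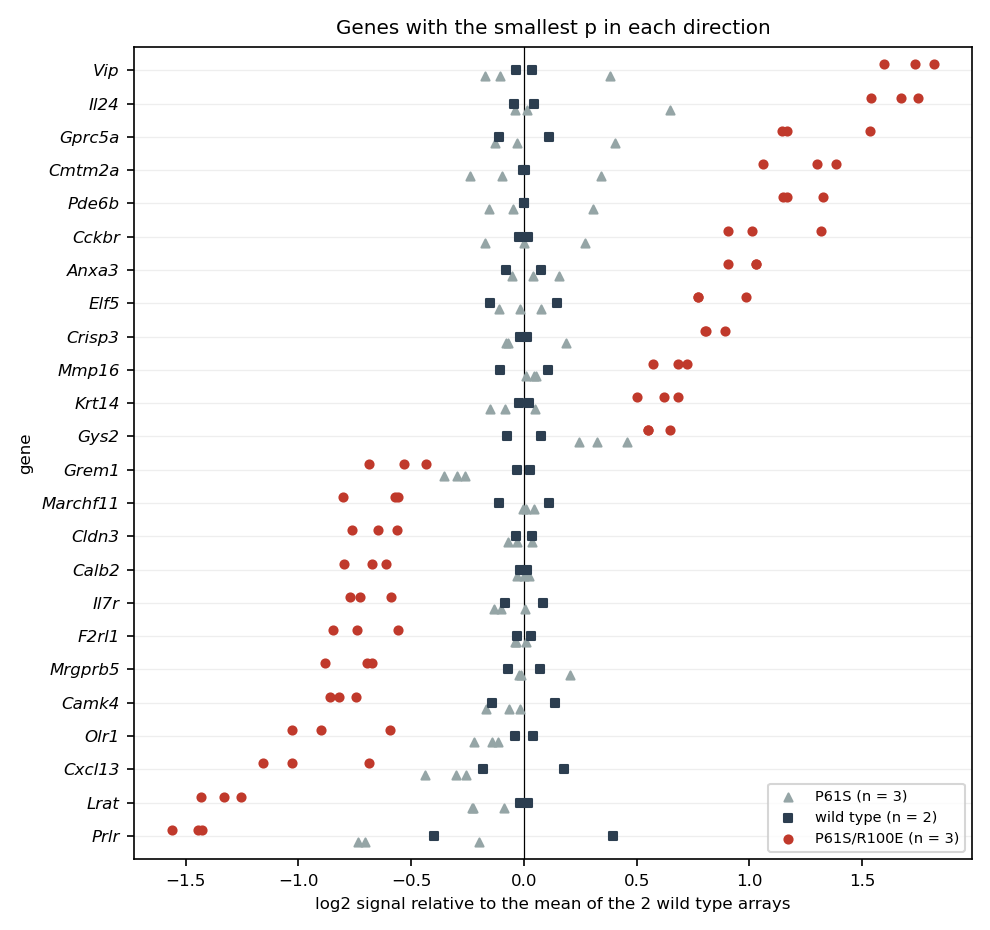
Log2 signal of the 24 genes of smallest p, relative to the mean of the 2 wild type arrays, 1 point per array for P61S/R100E (3), wild type (2) and P61S (3). In every gene shown, which the choice set, the P61S/R100E points are apart from both wild type points, and all 3 P61S points lie to the wild type side of the P61S/R100E points, as for Vip.

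Some genes with large differences were less even between arrays. Krt19, a keratin of simple epithelia, had the largest change upward, at -3.87, -2.65 and -3.46 with P61S/R100E and -5.45 and -5.35 with wild type (log2 change 2.07, SE 0.407). Its P61S/R100E arrays were all higher but spread over more than a log2 unit. C2h4orf46, an open reading frame without a known role, was at -5.66, -5.80 and -5.74 against -2.77 and -5.41, so its wild type arrays themselves differed, and its log2 change was -1.65 with both, -0.32 without wild type replicate 1 and -2.97 without wild type replicate 2.

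Vasoactive intestinal peptide stood among 29 measured neuropeptide and prohormone processing genes, of which 3 were higher and 6 lower at an unadjusted p under 0.05. The median log2 change of the list was -0.07, beside -0.03 over all 12147 genes, and 3 and 4 members passed without wild type replicate 2. Under the other scalings 3 to 5 were higher and 3 to 6 lower. The galanin gene Gal and the neurotensin gene Nts, peptides known to respond to axon injury, differed in opposite directions. The 250 bases before the start of Vip, Gal and Nts, and of Lrat for contrast, are printed here because peptide genes are textbook targets of CREB and ATF factors, which bind the core TGACG, and of AP-1, which binds TGANTCA. They are the RefSeq promoter windows of build GRCr8, 5′ to 3′ on the strand of the gene, with matches to those motifs on either strand in capitals. Vip lies at chr1:44470230-44470479 on the plus strand, Gal at chr1:210084573-210084822, Nts at chr7:39460889-39461138 and Lrat at chr2:170571213-170571462 on the minus strand.
Vip: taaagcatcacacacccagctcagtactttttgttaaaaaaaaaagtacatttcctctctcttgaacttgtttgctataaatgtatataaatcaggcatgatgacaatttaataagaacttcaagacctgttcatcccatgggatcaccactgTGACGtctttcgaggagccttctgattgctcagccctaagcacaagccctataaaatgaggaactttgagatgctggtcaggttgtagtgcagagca
Gal: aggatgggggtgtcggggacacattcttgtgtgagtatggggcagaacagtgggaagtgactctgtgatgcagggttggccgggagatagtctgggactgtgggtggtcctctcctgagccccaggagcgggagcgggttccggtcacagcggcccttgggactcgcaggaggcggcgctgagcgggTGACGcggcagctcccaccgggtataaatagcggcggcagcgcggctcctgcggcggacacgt
Nts: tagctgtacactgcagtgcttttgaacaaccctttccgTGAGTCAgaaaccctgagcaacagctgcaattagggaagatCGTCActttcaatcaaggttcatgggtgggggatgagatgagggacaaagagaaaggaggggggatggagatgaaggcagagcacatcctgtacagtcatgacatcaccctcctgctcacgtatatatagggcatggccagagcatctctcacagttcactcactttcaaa
Lrat: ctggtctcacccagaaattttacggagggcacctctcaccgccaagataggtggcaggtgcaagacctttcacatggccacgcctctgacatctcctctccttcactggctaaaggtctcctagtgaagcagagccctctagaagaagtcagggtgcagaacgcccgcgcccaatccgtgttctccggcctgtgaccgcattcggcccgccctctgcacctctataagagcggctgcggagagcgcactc
The Vip window holds 1 TGACG that begins 97 bases before the start, the Gal window 1 that begins 63 bases before it, and the Nts window a reverse match that begins 171 bases before it and an AP-1 match at 212. No match to either motif stands in the Lrat window, which says nothing beyond these letters and this window. The CREB core occurred on either strand in 18.2% of all 33469 windows and the AP-1 motif in 6.34%. Of the 9 neuropeptide members at an unadjusted p under 0.05, 8 had a window, and 6 of these held the CREB core (Bdnf, Gal, Nts, Scg2, Ucn and Vip), as did 9 of the 15 windows of the other members. It was thus present in members on both sides of the contrast and in members that did not pass. Among the 24 genes of smallest p it stood in 1 of 8 windows of higher genes (Vip) and 1 of 10 of lower genes (Olr1). A match is a run of letters and not a measured binding site.

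Gal was higher with P61S/R100E, at 4.76, 4.66 and 4.72 against 4.24 and 3.99 and 4.12, 4.52 and 4.12 with P61S alone (log2 change 0.60, SE 0.152, adjusted p 0.75). Nts was lower, at -2.91, -2.73 and -3.08 against -2.12 and -2.01 (log2 change -0.84, SE 0.166, adjusted p 0.62). In both genes the groups did not overlap, and without wild type replicate 2 the changes were 0.47 and -0.79. Ucn, urocortin, a relative of corticotropin-releasing hormone, was at -4.17, -3.83 and -3.89 against -4.66 and -4.66 (log2 change 0.69). Nppb, a natriuretic peptide of itch-sensing neurons, was at -5.49, -5.66 and -5.27 against -4.68 and -5.00 (log2 change -0.63, SE 0.16). Smaller lower values at an unadjusted p under 0.05 were those of Bdnf, a neurotrophin that nociceptors release (-0.36), Scg2, a granin of secretory vesicles (-0.28), Adcyap1, which encodes PACAP, a peptide close to Vip in sequence (-0.23), and Calcb, which encodes the beta form of calcitonin gene-related peptide (-0.21). The main peptides of nociceptors, Calca and Tac1, did not pass the unadjusted test. Calca, the alpha form of calcitonin gene-related peptide, was at 5.92, 5.71 and 5.81 against 5.95 and 5.81, with a log2 change of -0.07 (95% interval -0.43 to 0.30). Tac1, the substance P precursor, was at 4.76, 4.53 and 4.69 against 4.75 and 5.05, with a log2 change of -0.24 (95% interval -0.53 to 0.04), and its groups overlapped.

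Nociceptor channels and receptors were mostly lower. Of 40 genes listed, 38 were on the array and 34 were measured. Of these 34, 10 were lower and 1 was higher at an unadjusted p under 0.05. The median log2 change was -0.28 (all genes -0.03), and 8 of 34 lay above 0, where 5211 of all 12147 genes did. Wild type replicate 2 carried part of this, since without it 6 were lower, 1 was higher and the median was -0.07, where all genes had a median of 0.01 with 143 higher and 126 lower. Without wild type replicate 1 the median was -0.35 (all genes -0.07), and the median of the 21 pan-neuronal markers was -0.24 in that fit. The part of neuron number in these values was not tested. Under the other scalings 6 or 7 were lower and 1 or 2 higher, with medians from -0.28 to -0.10. All tested genes then had 282 to 386 lower and 247 to 453 higher.

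Trpa1, the channel for mustard oil and other irritants, was at -4.97, -4.82 and -5.61 with P61S/R100E and -4.26 and -3.73 with wild type. All 3 P61S/R100E arrays were lower and the groups did not overlap (log2 change -1.13, SE 0.275, adjusted p 0.75). The change was -0.87 without wild type replicate 2. With P61S alone Trpa1 was at -4.57, -4.18 and -4.52, above all 3 P61S/R100E arrays. The itch and protease receptors were lower as well. Mrgprb5, a Mas-related receptor, was at -6.02, -6.23 and -6.04 against -5.41 and -5.28 (log2 change -0.75, SE 0.117). F2rl1, protease-activated receptor 2, was at -3.22, -2.93 and -3.11 against -2.34 and -2.40 (log2 change -0.72, SE 0.105). Both were as low against wild type replicate 1 alone (-0.68 and -0.75). Mrgprx1, a further Mas-related receptor, had -0.82 against both arrays and -0.45 against replicate 1 alone. Mrgprx3, of the same family, had -0.32, P2ry2, a receptor for extracellular ATP and UTP, -0.59, Kcnk18, a leak potassium channel, -0.41, Trpm3, a heat-gated channel, -0.37, and the prostaglandin receptor Ptger2 -0.31.

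Trpv1, the capsaicin channel, was at 0.27, 0.46 and 0.29 with P61S/R100E and 0.53 and 0.73 with wild type, with a log2 change of -0.30 (SE 0.107) and -0.20 without wild type replicate 2. The groups did not overlap, but the lowest wild type array and the highest P61S/R100E array were close. P2rx2, an ATP-gated channel, was the member on the higher side, at -3.12, -2.94 and -2.90 against -3.60 and -3.60 (log2 change 0.61, SE 0.107). The sodium channel of nociceptors Scn10a was at 2.83, 2.99 and 2.91 against 3.00 and 2.83, with a 95% interval of the log2 change from -0.23 to 0.22, and its sign turned with the scaling. Asic1, an acid-sensing channel, had the highest log2 change of the list, 1.07, from -4.15 and -3.34 with wild type to -3.87, -0.25 and -3.91 with P61S/R100E. That change rested on P61S/R100E replicate 2, the other arrays of that group lay among the wild type values, a further probe gave 0.18, and it did not pass the unadjusted test. In bulk RNA fewer cells of a type and less RNA per cell cannot be told apart.

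**Figure D3:**
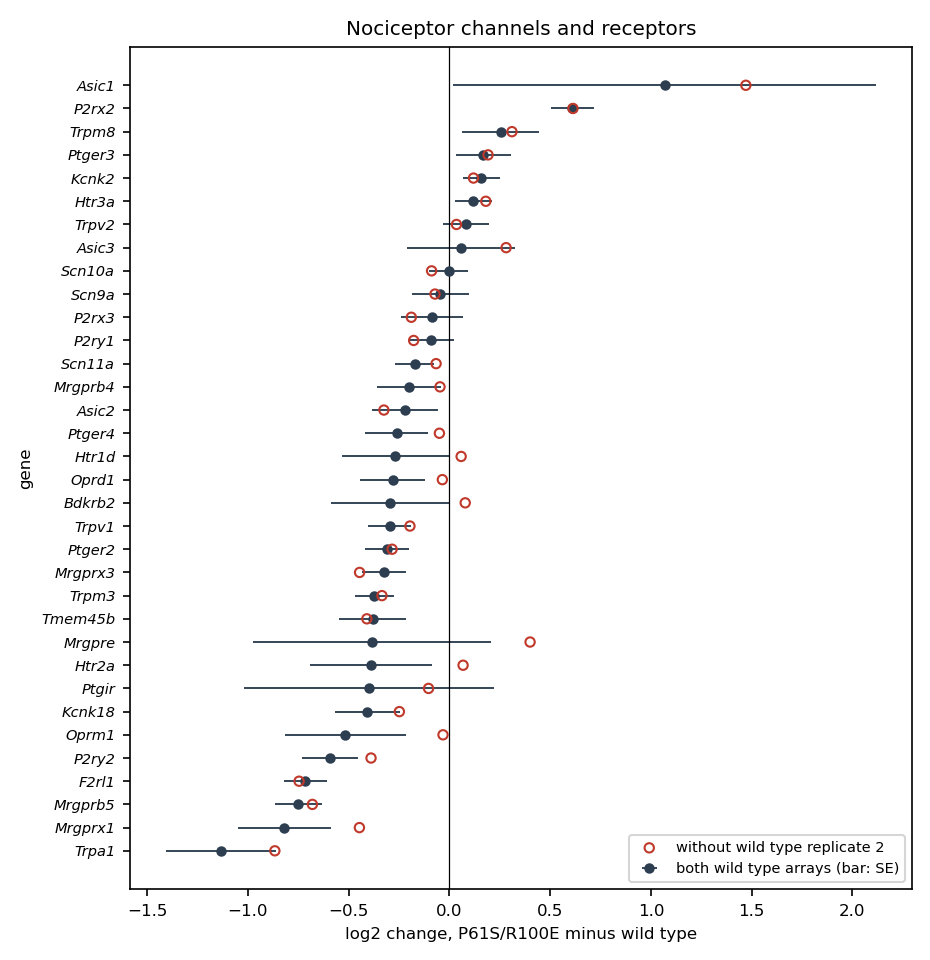
Log2 change of P61S/R100E minus wild type for the 34 measured nociceptor channels and receptors, with bars of 1 SE from the fit and open circles for the change without wild type replicate 2. Trpa1 is lowest at -1.13, P2rx2 passes on the higher side at 0.61, and marks for genes such as Mrgprx1 (-0.82 and -0.45) move toward 0 without that array.

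Axon injury genes differed in both directions, 7 higher and 8 lower of 35 measured at an unadjusted p under 0.05, with a median log2 change of 0.02. Without wild type replicate 2 the counts were 6 and 6, and under the other scalings 8 to 11 were higher and 5 to 8 lower. Beside the peptides and Cckbr given above, the higher members were Hspb1, a small heat shock protein of injured neurons (0.39, SE 0.0997), Ecel1, a membrane peptidase (0.38), Flrt3, a leucine-rich adhesion protein (0.29), and Atf3. Atf3, the injury transcription factor, was at 3.69, 3.54 and 3.67 against 3.33 and 3.48 (log2 change 0.23, SE 0.0926, adjusted p 0.75). The lower members held the regenerating proteins Reg3b (-0.47), Reg1a (-0.45) and Reg3a (-0.40), the cytokine Il6 (-0.41), the urokinase receptor Plaur (-0.54) and arginase Arg1 (-0.27). Reg3b was at 3.99, 3.86 and 4.03 with P61S/R100E and 4.48 and 4.37 with wild type. The 3 Reg genes lie in 1 family of close sequence, and whether their probes share signal was not tested. Gap43, a growth cone protein, had 0.20 and Sox11, a transcription factor of regrowing axons, -0.01, and neither passed the unadjusted test. Vip, Gal, Nts and Adcyap1 count in this list and among the neuropeptides.

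**Figure D4:**
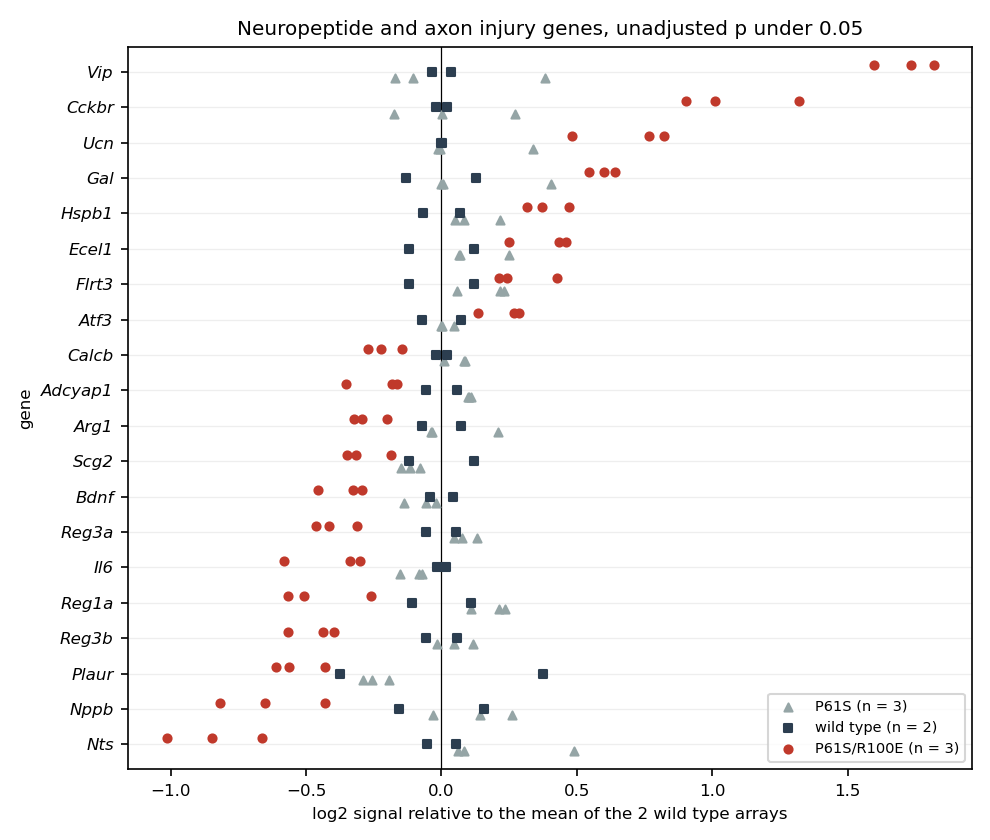
Log2 signal of the neuropeptide and axon injury genes at an unadjusted p under 0.05, relative to the mean of the 2 wild type arrays, 1 point per array for P61S/R100E (3), wild type (2) and P61S (3). Vip, Cckbr and Gal are higher and Nts and Nppb lower in the P61S/R100E arrays, and the wild type arrays of Plaur lie further apart than those of the other genes.

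Early genes and ERK feedback genes differed in 1 direction, 8 lower and 0 higher of 35 measured at an unadjusted p under 0.05. The limma fit gave 0 members past an adjusted p of 0.05 in either direction. The median log2 change was -0.16 (all genes -0.03), and 8 of 35 members lay above 0, where 5211 of all 12147 genes did. The median was -0.13 without wild type replicate 2 (all genes 0.01) and -0.29 without wild type replicate 1 (all genes -0.07). Within slide row 1 the median was -0.01 (all genes 0.02) and within row 2 -0.32 (all genes -0.07). Of these groups, row 1 held P61S/R100E replicate 1 and wild type replicate 1. Row 2 held P61S/R100E replicates 2 and 3 and wild type replicate 2. The row values thus set the wild type arrays apart again and cannot show an effect of the row by itself. Under the other scalings 5 to 7 were lower and 0 higher, where all tested genes had 282 to 386 lower and 247 to 453 higher. With replicate number as a block only 3 were lower and 0 higher, with a median of -0.14. All tested genes then had 261 lower and 166 higher, with a median of -0.03. Dusp5, a phosphatase that acts on ERK, was at -1.79, -1.54 and -1.77 with P61S/R100E and -1.06 and -1.18 with wild type (log2 change -0.59, SE 0.142, and -0.64 without wild type replicate 2). Spry2, an inhibitor of receptor tyrosine kinase signalling, was at -1.41, -1.55 and -2.10 against -1.22 and -0.99 (log2 change -0.58, SE 0.215). In both genes the P61S/R100E arrays lay below both wild type arrays. Etv4, an ETS factor induced by ERK, was at -5.08, -5.54 and -5.57 against -4.84 and -3.87, with a log2 change of -1.04 that shrank to -0.56 without wild type replicate 2. Egr4, a zinc finger early gene, was not well above background on any P61S/R100E array and was at least 2.33-fold higher with wild type (at least 1.68-fold and 3.24-fold without wild type replicates 1 and 2). The further lower members were Ccnd1, cyclin D1 (-0.50, and -0.16 without wild type replicate 2), Spry4 (-0.27), Ier3 (-0.25) and the AP-1 subunit Fosl1 (-0.23).

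Counts among ligands and receptors of the neurotrophin and GDNF families were near the shares over all genes (2.03% higher and 3.15% lower). Of 19 measured, 1 was lower at an unadjusted p under 0.05, Bdnf, at -0.98, -0.94 and -1.11 against -0.61 and -0.69 (log2 change -0.36, SE 0.0928), and 0 were higher. Ngfr, a receptor of the tumour necrosis factor receptor family that binds neurotrophins, was at 3.69, 3.64 and 3.81 against 3.55 and 3.75, with a log2 change of 0.06 (95% interval -0.17 to 0.30). Ret, the signalling receptor for GDNF ligands, had -0.10, and Gfra3, the artemin co-receptor, 0.12.

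Calcium binding and calmodulin genes were 6 lower and 2 higher of 38 measured at an unadjusted p under 0.05, with a median log2 change of -0.06 and 3 lower and 1 higher without wild type replicate 2. Calb1, the buffer calbindin, was at -3.73, -3.46 and -4.05 against -3.24 and -3.08 (log2 change -0.59) and Vsnl1, visinin-like protein 1, at -3.81, -3.18 and -3.70 against -4.02 and -4.24 (log2 change 0.57). Calb1 was thus on the side of Calb2 and Camk4, and Vsnl1 with Anxa3 on the other. Necab1, a calcium-binding protein of neurons, had -0.62, and Camkk2, the kinase upstream of Camk4, -0.53, but without wild type replicate 2 these values were -0.21 and -0.13. Rcan2, an inhibitor of calcineurin, had -0.39. Among 44 voltage-gated channel genes 3 were higher and 2 lower. The higher ones were potassium channels Kcnq3 (0.80, SE 0.168) and Kcna1 (0.72, SE 0.226) and the sodium channel subunit Scn4b (0.56, SE 0.123). Kcnq3, part of the M current, was at -1.65, -1.42 and -1.89 with P61S/R100E and -2.40 and -2.50 with wild type, and the groups did not overlap. The lower ones, the potassium channels Kcnc4 (-0.58) and Kcnd1 (-0.25), had -0.17 and -0.18 without wild type replicate 2.

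Among 21 measured genes of retinoid metabolism and response, Lrat was the 1 lower gene at an unadjusted p under 0.05, and 1 was higher. The list had a median log2 change of -0.01.

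Inflammatory mediators were 6 lower and 3 higher of 32 measured at an unadjusted p under 0.05, and 5 and 2 without wild type replicate 2. Apart from Il24, the higher ones were the cytokines Il1a (0.32, and -0.15 on a further probe) and Tnf (0.64, and 0.24 without wild type replicate 2). The lower ones were Il6, at -3.36, -3.4 and -3.65 against -3.04 and -3.08, the chemokines Ccl20 (-0.40) and Ccl5 (-0.41), the prostaglandin enzymes Ptges (-0.48) and Ptgs1 (-0.39), and the iron-binding lipocalin Lcn2 (-0.25). Macrophage and immune markers, whose cells can make such mediators, are given beside them. Of 22 measured, 4 were higher (Laptm5 0.38, Ptprc 0.30, Lyz2 0.24 and Adgre1 0.24) and 0 lower, and without wild type replicate 2 0 were higher and 1 was lower. The median log2 change of these markers was 0.12 (all genes -0.03). It was 0.17 without wild type replicate 2 (all genes 0.01) and 0.07 without wild type replicate 1 (all genes -0.07). Under the other scalings it ran from 0.08 to 0.20, where that of all tested genes ran from -0.02 to 0.05. The median level over the list ran from -1.79 to -1.46 in the P61S/R100E arrays and was -1.56 in both wild type arrays. The groups thus overlapped in this level, and 22 of 22 markers were above background on all 5 arrays. The part of these cells in the mediators was not tested.

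Metabolic and stress groups are given beside the shares of all genes at an unadjusted p under 0.05, 2.03% higher and 3.15% lower. Cholesterol synthesis had 3 of 25 higher and 0 lower, among them lanosterol synthase Lss (0.30) and the sterol reductase Hsd17b7 (0.23), and 1 without wild type replicate 2. Glycolysis and hypoxia had 2 of 31 lower, the glucose transporter Slc2a3 (-0.94) and Pfkfb3 (-0.64), which had -0.28 and -0.23 without that array. Apoptosis and survival had Hrk, a pro-apoptotic protein of neurons, higher (0.44, and -0.20 on a further probe) and Casp8 lower (-0.54) of 32. Interferon-induced genes (28 measured), endoplasmic reticulum stress (25) and the cell cycle (26) had 0 members past an unadjusted limma p of 0.05 in either direction. In lists of this size 0 is near the shares over all genes.

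Markers of the cell types in a ganglion are given beside the same shares over all genes, 2.03% higher and 3.15% lower. Pan-neuronal markers (21 measured), satellite glia (20), fibroblasts (20) and endothelial and mural cells (15) had 0 members past an unadjusted p of 0.05 in the limma fit of all arrays. The pan-neuronal markers depended on the wild type array, with 1 higher and 0 lower without wild type replicate 2 (median log2 change 0.07), and 0 higher and 9 lower without wild type replicate 1 (median -0.24). In that last fit 758 genes were higher and 2226 lower of all 12147, and satellite glia had 3 lower, fibroblasts 2 and endothelial and mural cells 4. The median level of the pan-neuronal list ran from 0.57 to 1.19 in the P61S/R100E arrays and from 0.75 to 1.24 in the wild type arrays, so the groups overlapped. Schwann cell genes had 1 of 22, the myelin lipid carrier Pmp2, at -0.35. Large-diameter neuron markers had 2 higher and 2 lower of 19, all of them channels or calcium-binding genes named above (Kcna1 and Vsnl1, and Calb1 and Calb2).

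**Figure D5:**
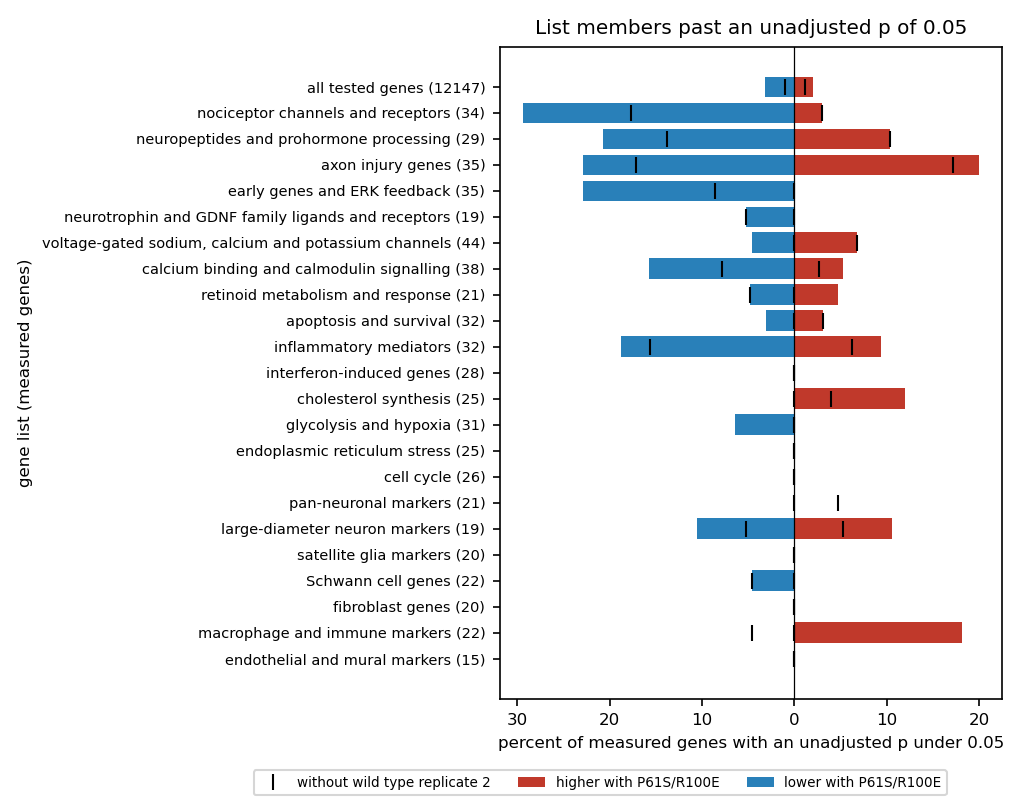
Percent of the measured genes of each list with an unadjusted p under 0.05, higher with P61S/R100E to the right and lower to the left, with the measured number in brackets and black ticks for the fit without wild type replicate 2. All tested genes give 2.03% and 3.15%, nociceptor genes have 10 of 34 on the left, and early and ERK feedback genes have 8 of 35 on the left and 0 on the right.

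Some probes were above background in only 1 of the groups. Of 23585 tested probes, that held for 114 in wild type, 54 of them with a symbol, and for 4 in P61S/R100E, 2 of them with one. The rules of the 2 sides differ. A probe had to be above background on 2 of 2 wild type and 0 of 3 P61S/R100E arrays, or on 3 of 3 and 0 of 2. The dimmest 4049 genes had a median log2 difference of -0.34 against wild type replicate 2 and 0.02 against replicate 1. The part of that array in the counts was not tested. For such probes the fold can only be bounded from below, from the mean of the detected group against, on each array of the other, the higher of the probe's own signal and the lowest signal well above background. Tnfsf4, the OX40 ligand of the tumour necrosis factor family, was at -6.78 and -4.84 with wild type and at least 5.12-fold higher there, at least 10.0-fold without wild type replicate 1 and at least 2.61-fold without wild type replicate 2. It was above background on 0 of 3 P61S arrays. Grm6, a glutamate receptor of retinal neurons, had a bound of 2.5-fold (5.01 and 1.25-fold without wild type replicates 1 and 2), and the olfactory receptor genes Or8b44b and Or9s13 2.39 and 2.51-fold. Against wild type replicate 1 alone the bound of Or8b44b was 1.05 and no fold could be given for Or9s13, and against wild type replicate 2 alone the bounds were 5.43 and 8.85-fold, so both rested on replicate 2. On the other side, C19h16orf86, an open reading frame without a known role, was at least 2.13-fold higher with P61S/R100E, and at least 1.4-fold and 3.23-fold without wild type replicates 1 and 2. The bound of Psapl1, a saposin-like protein, was 1.62-fold, and 1.07 and 2.46-fold without those arrays. Both were above background on 2 of 3 P61S arrays too.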

How the data were processed

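The 8 arrays were 1-colour Agilent arrays of total RNA from the cultures, and RNA whose integrity number fell below 8.0 had been discarded, per the labels. Per the file headers, the authors' scanner files hold background-subtracted spot intensity from Feature Extraction 10.7.3.1, protocol GE1_107_Sep09, on array design 028279. The authors' deposited log2 values served as an alternative. Outlier spots were dropped unless all spots of a probe were outliers. The log2 signals of the kept spots were averaged, and the log2 of the 75th percentile of the array was subtracted. A probe counted as well above background where all its kept spots did. It was tested if it did so on every array of at least 1 of the 3 groups, P61S included. This left 23585 of 30367 probes. Symbols came from the GRCr8 table by the accession that the files give for each probe (17998 probes). The array design used build rn4, so no probe coordinates are given. Promoter windows are RefSeq's.

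P61S/R100E was compared with wild type in 1 limma fit of 8 arrays and 3 groups (R 4.3.3 and limma 3.58.1) whose residual and prior degrees of freedom were 5 and 1.93, with Benjamini-Hochberg adjustment over all probes. The script was tested on simulated data. Intervals are 95% intervals of the fit. The number of arrays limits the precision. Deviations of same-numbered arrays from their group means correlated at -0.198 to 0.167. The deviations of the 2 wild type arrays mirror each other, so these values cannot decide whether the numbers pair the arrays. The main fit used no block.

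Members and the 22 lists were chosen with earlier results of these data known. The named genes are any past an adjusted p of 0.05, filled up to 12 per direction by p among genes without overlap, the 5 with the largest change per direction, in each list up to 3 members per direction, up to 5 detected in 1 group, and 12 fixed genes. The other list members named, and Asic1, Gap43, Sox11, Ret and Gfra3, were chosen after their values were seen. Some items these rules take are not reported here. Alternatives were normexp (offset 50) with quantile normalization, quantile normalization, median centring, the deposited values, other filters, slide row or replicate number as a block, a fit of 2 groups, a robust trend, an adjusted p of 0.10 and each array left out. For normexp the median spot signal was used, because the files hold it in place of the planned mean signal. Slide-row values and list counts under other scalings were added after seeing the data. Figures used matplotlib 3.10.9, and tables numpy 2.4.6 and pandas 2.3.3 (Python 3.11.15).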

Additional observations from a re-analysis of the deposited data

How the results depend on the processing

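The count of probes past an adjusted p of 0.05, 0 in the limma fit, was 1 in the deposited values, with normexp, with quantile normalization, with a robust variance trend, with a filter on all 8 arrays and at an adjusted p of 0.10. It ran from 0 to 1244 when 1 array was left out. The 377 higher probes at an unadjusted p under 0.05 became 702 with normexp, 625 with quantile normalization and 243 in the fit of 2 groups, and ran from 231 to 1224 when 1 array was left out. The 811 lower probes became 479 in the fit of 2 groups and 506 with the replicate block, and ran from 235 to 4986. With the replicate block 272 probes were higher and 0 passed the adjusted test. The cause of these shifts was not tested, but the extremes came from leaving out a wild type array.

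Of 79 named genes, 5 turned direction under some setting. Ngfr became -0.0265 within slide row 2, and with 1 array left out it ran from -0.0399 to 0.17. Scn10a became 0.0872 with normexp, 0.074 with median centring, 0.0008 in the deposited values, 0.0026 with the replicate block and 0.12 within slide row 2, and with 1 array left out it ran from -0.0886 to 0.0797. Calca became 0.083 with normexp and 0.0102 with median centring, and ran from -0.14 to 0.0033. Tac1 became 0.0029 and Or9s13 0.17 within slide row 1. A total of 33 named genes passed an adjusted p of 0.05 in limma under some setting, most of them without wild type replicate 1.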

Other observations

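Some probes without a gene name were well above background in only 1 of the groups. Those given here passed the filter only through the group where they were high, so that separation was set by the choice. A_64_P010728 was at -6.48 and -5.68 with wild type and at -10.48, -10.04 and -10.37 with P61S/R100E, where it was not well above background. It was at least 4.25-fold higher with wild type, and at least 5.61-fold and 3.22-fold without wild type replicates 1 and 2. Its adjusted p in limma was 0.16. It was 0.045 with normexp, where the log2 change was -0.98, and 4.4e-05 with quantile normalization, where the change was -4.18. It was above background on 0 of 3 P61S arrays, at -10.96, -10.41 and -9.70. On the other side, A_44_P210394 was at -4.49, -5.95 and -1.71 with P61S/R100E and was not well above background with wild type (-9.60 and -8.37). It was at least 18.5-fold higher with P61S/R100E, and at least 12.2-fold and 28.1-fold without wild type replicates 1 and 2. Its P61S/R100E arrays spread widely, its adjusted p in limma was 0.75, and it was above background on 0 of 3 P61S arrays. The genes behind these probes were not identified here.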
